A study of Mus musculus with 9 samples.

Results

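Presynaptic vesicle release genes were followed in the cerebral cortex of mouse embryos at E13.5 with and without the RNA-binding protein Sfpq. The group has 9 members of the 23201 named genes in the tables: the calcium sensor Syt1, the SNARE gene Snap25, the priming genes Unc13a, Cadps and Cadps2, and the active zone genes Rims1, Erc2, Ppfia2 and Bsn. They were chosen by name as parts of the release machinery, and each was read from the RefSeq transcript with its highest mean level over the 9 libraries. All 9 were in every table.

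A synaptic vesicle releases transmitter when SNARE proteins on the vesicle and on the plasma membrane zip together and the membranes fuse. Before that, vesicles are docked at the active zone by large scaffold proteins and brought into a fusion-ready state by priming factors, and synaptotagmin then couples fusion to the entry of calcium. In the cortex at this age many cells are dividing progenitors, the first neurons are forming and few synapses exist.

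The study compared 3 libraries from embryos labelled as a homozygous knockout of Sfpq, 3 from embryos labelled as a heterozygous knockout and 3 from controls. All carry the same strain label, C57BL/6+C57BL/6J+CBA, and the tissue is given as a mixture of neural stem cells and neurons. Ribosomal RNA was depleted from total RNA, so RNA with and without a poly(A) tail was read. The labels name neither a Cre driver nor the part of Sfpq removed, and do not say whether a library came from 1 embryo or several, so p-values measure the spread between libraries. The series' title puts the question: whether Sfpq regulates long neuronal genes. Levels are given as RPKM, which scales reads by transcript length and library size. Changes are given on a log2 scale after adding 0.5 RPKM to each value, and for low genes they are smaller than the change in RPKM itself.

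Sfpq itself stood at 26.1, 28.6 and 27.6 RPKM in homozygous cortex, 185, 163 and 169 RPKM in heterozygous cortex and 184, 202 and 218 RPKM in control cortex. It fell by 2.85 ± 0.07 (SE) on the log2 scale in homozygous against control cortex, with a limma adjusted p of 1.22e-09, and differed by -0.22 in heterozygous against control cortex, with an adjusted p of 0.709. The cortical markers Emx1, Pax6, Tbr1, Neurod6 and Eomes were present in every library. Depth, estimated from the steps between low values, was 169.5 to 204.5 in units of 1e6 reads. By the levels of Xist and of 4 genes on the Y chromosome, the homozygous libraries were 1 female and 2 male, the heterozygous libraries 3 male, and the control libraries 2 female and 1 male. Homozygous replicate 3 stood highest of its genotype for 8 of the 9 members, and control replicate 3 for 7 of 9.

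The region before the start of a gene is shown for 3 members: Cadps and Syt1, which were low in homozygous cortex, and Unc13a, a priming gene for which no change was called. Start sites and sequence are those of the RefSeq table on GRCm38.p6, which held 8 of the 9 members. Each window runs from 250 bases before the start to its first 30 transcribed bases, 5′ to 3′ on the strand of the gene. They are Cadps at chr14:12823050-12823329, Syt1 at chr10:109010946-109011225 and Unc13a at chr8:71671728-71672007, all on the minus strand.
Cadps: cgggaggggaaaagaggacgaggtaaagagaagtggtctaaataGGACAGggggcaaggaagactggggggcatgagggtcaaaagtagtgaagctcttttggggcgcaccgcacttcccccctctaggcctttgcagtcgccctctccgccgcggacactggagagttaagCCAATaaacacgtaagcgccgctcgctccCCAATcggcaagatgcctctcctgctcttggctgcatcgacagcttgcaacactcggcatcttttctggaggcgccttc
Syt1: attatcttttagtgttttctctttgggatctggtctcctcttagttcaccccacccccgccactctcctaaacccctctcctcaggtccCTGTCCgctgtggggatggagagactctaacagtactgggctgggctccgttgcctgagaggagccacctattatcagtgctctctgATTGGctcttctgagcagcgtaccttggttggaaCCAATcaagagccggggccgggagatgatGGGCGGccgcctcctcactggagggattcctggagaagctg
Unc13a: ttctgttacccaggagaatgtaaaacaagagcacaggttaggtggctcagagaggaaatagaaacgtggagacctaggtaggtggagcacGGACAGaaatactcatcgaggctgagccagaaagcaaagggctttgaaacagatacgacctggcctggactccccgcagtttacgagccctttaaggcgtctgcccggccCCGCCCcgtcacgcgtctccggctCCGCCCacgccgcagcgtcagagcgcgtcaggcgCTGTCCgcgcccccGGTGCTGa
Capitals mark matches on either strand to 6 short motifs: GGACAG and CAGCACC, the right and left parts of RE1, the element bound by REST, a repressor of neuronal genes, the GC box GGGCGG, the CCAAT box, the TATA box TATAAA and the cyclic AMP response element TGACGTCA. Of all 32851 windows of this length in the table, 20.8% held GGACAG, 6.47% CAGCACC, 34.7% GGGCGG, 36.1% CCAAT, 13.1% TATAAA and 1.74% TGACGTCA. With the first transcribed base as 1 and the base before it as -1, the Cadps window held GGACAG with its first base at -206 and CCAAT at -78 and -49. The table holds 2 starts of Syt1. The window shown, at the upstream one, held the same kinds of match and a GC box at -11, and the window at the other start, chr10:109009082-109009361, had no match to the 6 motifs and 5 CpG. The Unc13a window held both parts of RE1, GGACAG at -160 and 9 and CAGCACC at 23, together with GC boxes at -50 and -26. A match is a string of letters in the window, and binding was not measured. In CpG dinucleotides, Cadps had 16, Syt1 8 and Unc13a 23, against a median of 6 over all windows.

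The 5 members that fell in homozygous cortex were Cadps, Cadps2, Syt1, Erc2 and Rims1. Of the 8 members with a mean of at least 0.5 RPKM, which were the ones tested, 5 were called lower in homozygous against control cortex and 0 higher, at a limma adjusted p below 0.05. Over all 12159 genes tested, 19.9% were called lower and 14.4% higher in this comparison. In heterozygous against control cortex no member was called, and no gene of the 12159 was called either (0% in either direction), while 699 genes (5.75%) had an unadjusted limma p below 0.05. In homozygous against heterozygous cortex 6 of the 8 were called lower, the same 5 and Ppfia2, where 18.3% of all genes were called lower and 14.6% higher. Against heterozygous cortex Cadps fell by 1.76 on the log2 scale (limma adjusted p = 1.04e-07), Cadps2 fell by 1.04 (8.14e-05), Syt1 fell by 0.83 (4.75e-05), Erc2 fell by 0.76 (0.000493) and Rims1 fell by 0.41 (0.00372). The homozygous libraries lay below every control library for all 5, as they did for 25.6% of genes tested, and below every heterozygous library, as for 24.2%. In bulk cortex, fewer cells that express a gene and less of its RNA per cell cannot be told apart. The homozygous group enters both of these comparisons, so their counts are not independent of each other. Under other scalings the calls over all genes shifted towards higher ones: 41.9% of the calls in homozygous against control cortex were higher, 53.8% after quantile normalization and 60.3% with libraries centred on their median, against 44.4%, 53.2% and 62% in homozygous against heterozygous cortex. The 5 members kept their calls in both comparisons under each of these scalings.

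**Figure D1:**
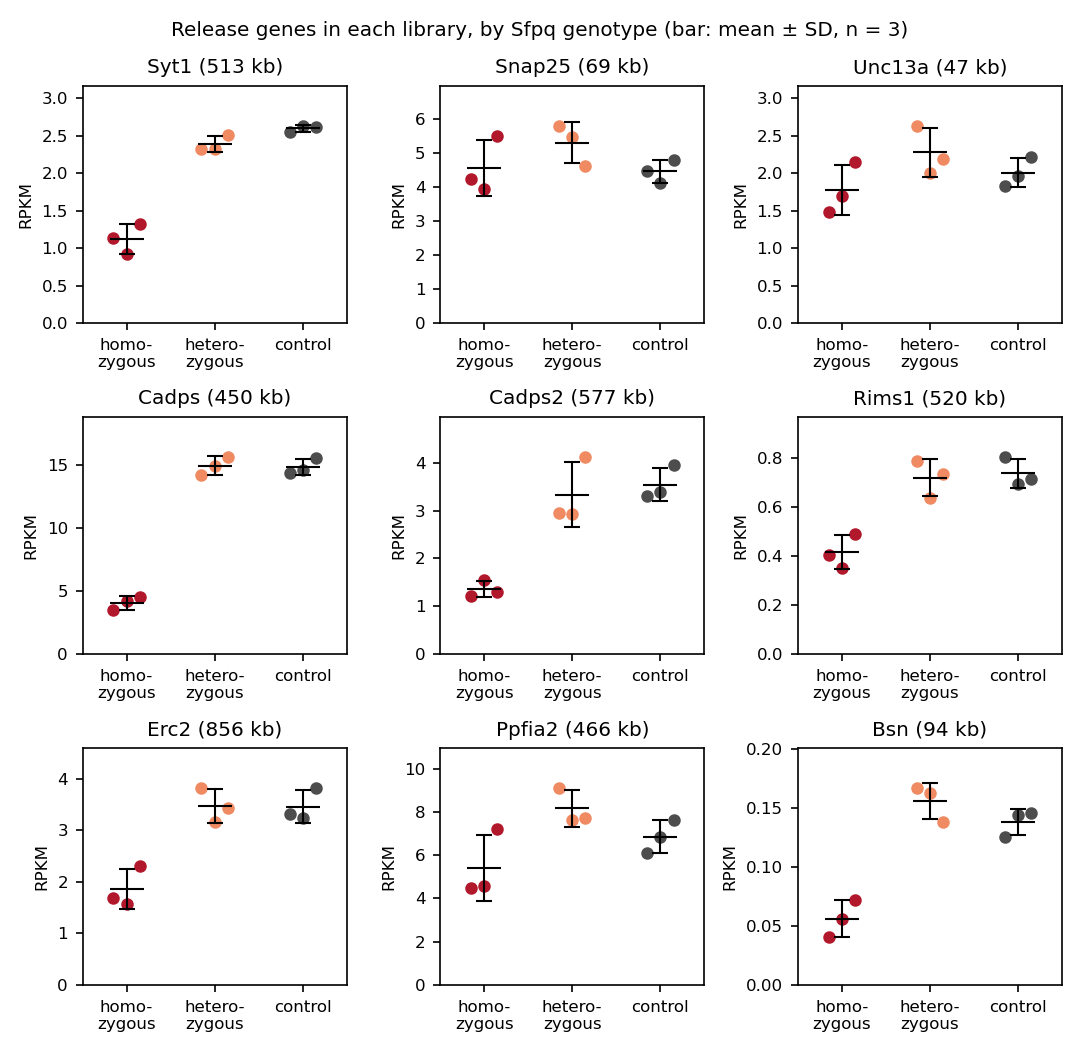
Level of each of the 9 genes in RPKM in each library, with homozygous, heterozygous and control libraries from left to right; horizontal bars are means and error bars SD of 3 libraries, and the genomic span is in each title. Cadps, Cadps2, Syt1, Erc2, Rims1 and Bsn have every homozygous point below every control point, while the points of Snap25, Unc13a and Ppfia2 overlap.

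Among the genes that carry out fusion, the sensor Syt1 fell in homozygous cortex and no change was called for its SNARE partner Snap25. Syt1 encodes synaptotagmin 1, the vesicle protein that senses calcium for fast release, and its gene spans 513 kb. Syt1 stood at 1.14, 0.922 and 1.32 RPKM in the homozygous libraries, 2.33, 2.33 and 2.51 RPKM in the heterozygous libraries and 2.55, 2.64 and 2.62 RPKM in the control libraries. The homozygous libraries were all below the others, and the heterozygous libraries were all just below the control libraries. Syt1 fell to 43.3% of its control mean, by 0.94 ± 0.09 (SE) on the log2 scale with a limma adjusted p of 1.85e-05. The heterozygous difference was -0.11, with an adjusted p of 0.978, although the libraries did not overlap, as in 7.54% of genes tested. Snap25 encodes the plasma membrane SNARE protein SNAP-25 and spans 69.0 kb. Snap25 stood at 4.25, 3.95 and 5.51 RPKM in the homozygous libraries, 5.81, 5.46 and 4.63 RPKM in the heterozygous libraries and 4.47, 4.13 and 4.79 RPKM in the control libraries. The 3 genotypes overlapped. Its homozygous mean was 102% of the control mean, a log2 difference of 0.02 ± 0.12 (SE) at a limma adjusted p of 0.915, and the sign of that difference turned in 2 of the 9 fits that left out 1 library. Against heterozygous cortex the difference was -0.20, adjusted p 0.218, and without homozygous replicate 3 it was -0.33 with a limma adjusted p of 0.0380.

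The balance of the pair was lower in both knockout groups than in any control library, narrowly so in heterozygous cortex. There the log2 ratio of replicate 3 was -0.7695, against -0.7614 in control replicate 3. The log2 ratio of Syt1 to Snap25 was -1.63 ± 0.09 in homozygous, -1.0 ± 0.21 in heterozygous and -0.68 ± 0.10 in control cortex (SD, n = 3 each). A two-sided exact permutation test gave p = 0.1 for each, the smallest that 3 against 3 libraries allow, and 0.175 after adjustment over the 14 tests of 7 pairs in 2 comparisons. For this and the other pairs, how often ratios of any 2 genes do not overlap between groups was not computed.

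The priming genes held the largest fall among the members and also one with no call. Cadps encodes CAPS1, which primes dense core and synaptic vesicles, and spans 450.5 kb. Cadps stood at 3.47, 4.23 and 4.49 RPKM in the homozygous libraries, 14.2, 14.9 and 15.7 RPKM in the heterozygous libraries and 14.4, 14.6 and 15.6 RPKM in the control libraries. The homozygous libraries lay far below the other 6, whose ranges overlapped. Cadps fell to 27.4% of the control mean, by 1.76 ± 0.08 (SE) on the log2 scale (limma adjusted p = 1.03e-07), and the heterozygous difference was 0.01 with an adjusted p of 0.998. Its paralog Cadps2, which encodes CAPS2 and spans 576.6 kb, stood lower in every group. Cadps2 stood at 1.22, 1.54 and 1.31 RPKM in the homozygous libraries, 2.96, 2.92 and 4.13 RPKM in the heterozygous libraries and 3.30, 3.39 and 3.95 RPKM in the control libraries. The homozygous libraries were all below the others. Cadps2 fell to 38.2% of the control mean, by 1.12 ± 0.12 (SE) on the log2 scale with a limma adjusted p of 4.27e-05. Its heterozygous libraries overlapped the control libraries, with a difference of -0.09 and an adjusted p of 0.997.

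Between the CAPS genes the log2 ratio, Cadps to Cadps2, was 1.29 ± 0.15 in homozygous, 2.02 ± 0.19 in heterozygous and 1.92 ± 0.06 in control cortex (SD, n = 3 each), with no overlap between homozygous and control libraries (two-sided exact permutation test p = 0.1, adjusted 0.175). Unc13a encodes Munc13-1, the priming factor that opens syntaxin for SNARE assembly, and spans 47.3 kb. Unc13a stood at 1.48, 1.70 and 2.15 RPKM in the homozygous libraries, 2.64, 2.01 and 2.19 RPKM in the heterozygous libraries and 1.83, 1.96 and 2.22 RPKM in the control libraries. All 3 groups overlapped. Its homozygous mean was 88.6% of the control mean, a log2 difference of -0.15 ± 0.12 (SE) with a limma adjusted p of 0.387. When 1 library was left out it ran from -0.26 (without homozygous replicate 3) to -0.05 (without homozygous replicate 1), and no call was made in any of these fits. Against heterozygous cortex the difference was -0.29 with an adjusted p of 0.0867, and without homozygous replicate 3 it was -0.41 with a limma adjusted p of 0.0251. Unc13b, which encodes Munc13-2 and spans 206 kb, fell by 0.56 on the log2 scale in homozygous against control cortex with a limma adjusted p of 0.000443. The log2 ratio of Unc13a to Unc13b was -1.54 ± 0.23 in homozygous, -1.77 ± 0.18 in heterozygous and -1.96 ± 0.08 in control cortex (SD, n = 3 each), the homozygous and control libraries not overlapping (exact permutation p = 0.1, adjusted 0.175).

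Among the active zone scaffolds Erc2 and Rims1 fell, and Ppfia2 and Bsn had less certain differences from control. Erc2, also called CAST or ELKS2, links several scaffolds at the active zone and is the longest member at 856.1 kb. Erc2 stood at 1.69, 1.58 and 2.30 RPKM in the homozygous libraries, 3.81, 3.17 and 3.43 RPKM in the heterozygous libraries and 3.32, 3.24 and 3.83 RPKM in the control libraries. The homozygous libraries were the lowest. Erc2 fell to 53.6% of the control mean, by 0.76 ± 0.12 (SE) on the log2 scale (limma adjusted p = 0.000486), and the heterozygous difference was 0.00 with an adjusted p of 0.999. Its paralog Erc1 differed by -0.26 in homozygous against control cortex, with a limma adjusted p of 0.145. The log2 ratio of Erc2 to Erc1 was -1.46 ± 0.23 in homozygous, -1.0 ± 0.13 in heterozygous and -0.96 ± 0.21 in control cortex (SD, n = 3 each), again without overlap of homozygous and control libraries (exact permutation p = 0.1, adjusted 0.175).

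Rims1 encodes RIM1, which ties vesicles through Rab3 to the active zone and gathers calcium channels there, and spans 519.7 kb. Rims1 stood at 0.403, 0.353 and 0.490 RPKM in the homozygous libraries, 0.789, 0.637 and 0.732 RPKM in the heterozygous libraries and 0.805, 0.694 and 0.712 RPKM in the control libraries. It was low in every genotype, and its homozygous libraries all stood under 0.5 RPKM, so that it was tested through its level in the other 2 groups. Rims1 fell to 56.4% of the control mean, by 0.44 ± 0.09 (SE) on the log2 scale with a limma adjusted p of 0.00255. At so low a level the size depends on the scale: the change was -0.71 with 0.1 RPKM added in place of 0.5, -0.30 with 1 added and -0.69 with the transcripts summed, and it was called each time. The heterozygous difference was -0.02, adjusted p 0.997.

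Rims2, the paralog that encodes RIM2 and spans 486 kb, went the other way. It stood at 7.94, 5.38 and 8.47 RPKM in homozygous, 3.33, 2.92 and 3.07 RPKM in heterozygous and 3.38, 3.06 and 3.36 RPKM in control cortex. Rims2 rose by 1.02 ± 0.13 (SE) on the log2 scale in homozygous against control cortex, with a limma adjusted p of 0.000161. The values come from a transcript spanning 484 kb, and a short Rims2 transcript of 24.8 kb stood at 0.493 ± 0.034 RPKM in homozygous, 0.707 ± 0.103 in heterozygous and 0.712 ± 0.043 in control cortex (SD, n = 3 each). Set against Rims2, the log2 ratio of Rims1 was -3.06 ± 0.24 in homozygous, -1.57 ± 0.03 in heterozygous and -1.61 ± 0.06 in control cortex (SD, n = 3 each). Of the 7 pairs this was the largest difference from control, -1.46, with an exact permutation p of 0.1 and 0.175 after adjustment.

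Ppfia2 encodes liprin-alpha-2, a scaffold that binds RIM and ELKS proteins, and spans 465.6 kb. Ppfia2 stood at 4.50, 4.56 and 7.19 RPKM in the homozygous libraries, 9.13, 7.61 and 7.74 RPKM in the heterozygous libraries and 6.09, 6.86 and 7.64 RPKM in the control libraries. The third homozygous library lay within the control range and the other two below it. The homozygous mean was 78.9% of the control mean, a log2 difference of -0.34 ± 0.15 (SE) at a limma adjusted p of 0.109, and without homozygous replicate 3 the difference was -0.54 with an adjusted p of 0.00328. Against heterozygous cortex Ppfia2 fell by 0.58 with a limma adjusted p of 0.0138, and the libraries did not overlap. That call was lost in 4 of 20 alternatives, with adjusted p-values of 0.0503 without homozygous replicate 2, 0.0577 without homozygous replicate 1, 0.0546 without heterozygous replicate 1 and 0.0839 with no filter on low values. The heterozygous difference from control was 0.23, adjusted p 0.948. The log2 ratio of Ppfia2 to Ppfia1, a liprin-alpha gene used in many tissues, was -1.52 ± 0.33 in homozygous, -0.92 ± 0.06 in heterozygous and -1.19 ± 0.03 in control cortex (SD, n = 3 each). The homozygous libraries overlapped the control libraries, with a difference of -0.33 (exact permutation p = 0.4, adjusted 0.467). Without homozygous replicate 3 the difference was -0.52 with an unadjusted exact permutation p of 0.1, the smallest that 2 against 3 libraries allow, and without homozygous replicate 2 it was -0.20. In this pair the heterozygous libraries were all above the control libraries (exact permutation p = 0.1, adjusted 0.175).

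Bsn encodes Bassoon, one of the giant scaffold proteins of the active zone, and spans 94.4 kb. Bsn stood at 0.0405, 0.0562 and 0.0717 RPKM in the homozygous libraries, 0.167, 0.162 and 0.138 RPKM in the heterozygous libraries and 0.125, 0.144 and 0.145 RPKM in the control libraries. Its mean of 0.117 RPKM was under the minimum for testing. The homozygous libraries were all below the others, at 40.7% of the control mean. Over all 9 libraries Bsn had an estimated 109 to 469 reads per library. With no filter on low values the log2 change was -0.20 with a limma adjusted p of 0.00315 in homozygous against control cortex, and 0.04 with an adjusted p of 1 in heterozygous against control cortex. Its large relative Pclo, which encodes Piccolo, stood at 0.215 ± 0.037 RPKM in homozygous, 0.314 ± 0.014 in heterozygous and 0.251 ± 0.041 in control cortex (SD, n = 3 each), also under the minimum. The log2 ratio of Bsn to Pclo was -0.36 ± 0.04 in homozygous and -0.23 ± 0.05 in control cortex (exact permutation p = 0.1, adjusted 0.175), on a scale where the added 0.5 outweighs both levels: the difference was -0.13, and -0.45 with 0.1 RPKM added in its place.

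**Figure D2:**
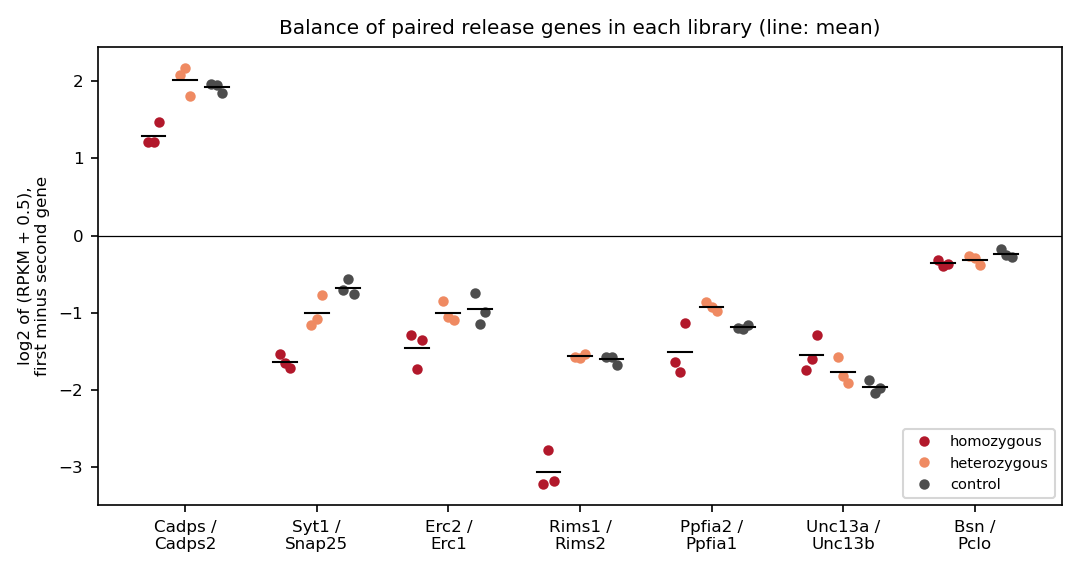
Log2 ratio of (RPKM + 0.5) of the first to the second gene of 7 pairs, 1 point per library and a line at the mean of 3, with homozygous, heterozygous and control libraries from left to right in each pair. Homozygous points lie below all control points for Cadps/Cadps2, Syt1/Snap25, Erc2/Erc1, Rims1/Rims2 and Bsn/Pclo, above them for Unc13a/Unc13b, and overlap them for Ppfia2/Ppfia1.

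The order of the members by level, which RPKM allows since it is per length, differed between genotypes. In homozygous cortex Ppfia2 led, followed by Snap25, Cadps, Erc2, Unc13a, Cadps2, Syt1, Rims1 and Bsn. Of these neighbours Ppfia2 and Snap25, Snap25 and Cadps, Erc2 and Unc13a, Unc13a and Cadps2, and Cadps2 and Syt1 overlapped between libraries. In heterozygous cortex the order was Cadps, Ppfia2, Snap25, Erc2, Cadps2, Syt1, Unc13a, Rims1 and Bsn, with overlap of Erc2 and Cadps2 and of Syt1 and Unc13a. In control cortex Cadps also led, followed by Ppfia2, Snap25, Cadps2, Erc2, Syt1, Unc13a, Rims1 and Bsn, and of these neighbours only Cadps2 and Erc2 overlapped. Summed over the 9 members the level was 18.2 to 24.8 RPKM in homozygous, 39.2 to 41.8 RPKM in heterozygous and 36.8 to 41.5 RPKM in control libraries. Cadps alone made up 18.1% to 22.4% of that sum in homozygous, 33.9% to 38.1% in heterozygous and 37.6% to 38.9% in control libraries.

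Transcripts of a gene stood at similar percentages of control. In homozygous cortex the transcripts stood at 27.4% of their control mean for both of Cadps, 37.1% to 42.2% for the 7 of Cadps2, 40.9% to 44.1% for the 3 of Syt1 and 56.3% to 56.9% for the 5 of Rims1. Every one of these had homozygous libraries below all control libraries. The 2 of Ppfia2 stood at 78.8% and 78.9%, with overlap. Transcripts of a gene share most of their exons and so their reads, and are not separate measurements.

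**Figure D3:**
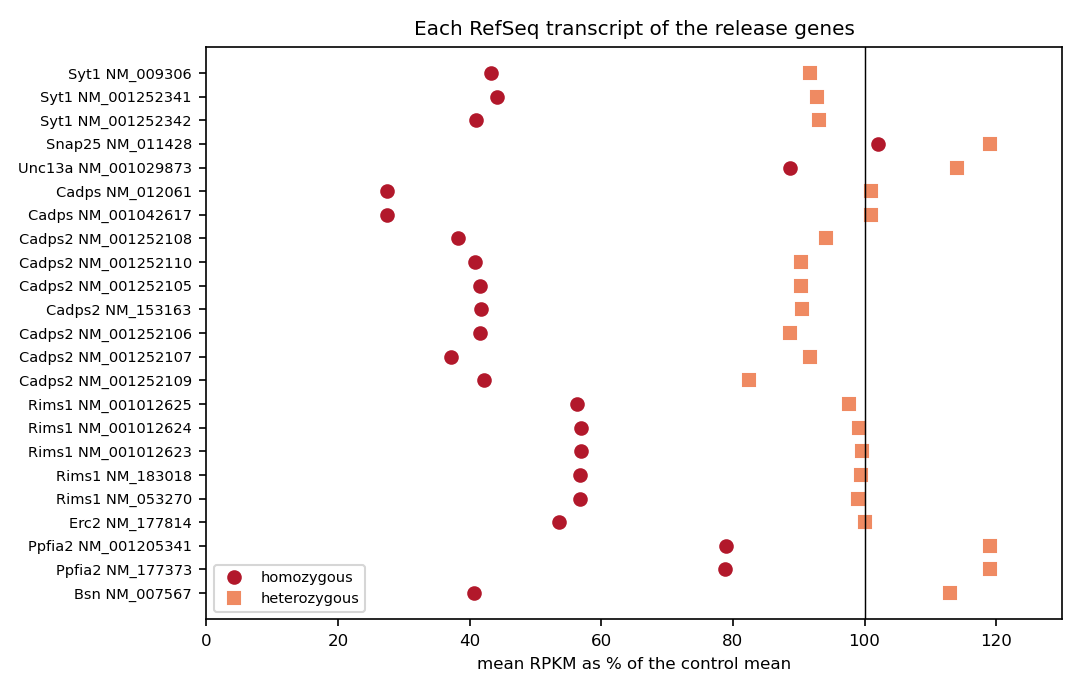
Mean RPKM of each RefSeq transcript of the 9 genes in homozygous (circles) and heterozygous (squares) cortex as a percentage of its control mean, with a vertical line at 100%. Homozygous transcripts of Cadps sit at 27.4%, those of Cadps2 between 37.1% and 42.2%, and the transcript of Snap25 at 102%.

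The members were then divided by length. The 6 that span at least 100 kb (Cadps, Cadps2, Syt1, Erc2, Rims1, Ppfia2) had a median change of -0.85 (log2) from control in homozygous cortex. For the 3 shorter ones (Snap25, Unc13a, Bsn) the median was -0.15, which makes a difference of -0.70. Of these 3, Bsn stood at 40.7% of its control mean, below the percentage of Syt1 (43.3%). Its log2 change was only -0.20 because the added 0.5 RPKM outweighs its level. With a limit of 50 kb the difference was -0.45, from 8 long members and Unc13a alone as the short one. Per library, with the limit of 100 kb, the difference from the control mean was -0.65, -0.77 and -0.71 in homozygous and -0.33, -0.17 and -0.01 in heterozygous cortex. It was -0.02, -0.01 and 0.01 in control cortex, whose own mean is the reference. The homozygous libraries stood apart from the rest, and of the heterozygous libraries 2 lay below the controls and 1 among them. In heterozygous cortex the median change was -0.009 for the long and 0.15 for the shorter members, a difference of -0.15. The long members ran from -0.105 (Syt1) to 0.23 (Ppfia2) and the short ones from 0.04 (Bsn) to 0.22 (Snap25). The short median is the value of Unc13a, and no member was called in this comparison. The long members supplied 68.3% to 69.8% of the summed level in homozygous, 79.4% to 83.1% in heterozygous and 82.5% to 83.4% in control libraries.

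The long members span 450.5 to 856.1 kb, so they are read beside other genes of such length. Of the 1807 genes tested that span at least 100 kb, 759 were called lower and 193 higher in homozygous against control cortex, and the median change was -0.14 (log2). Among the 235 tested genes of at least 400 kb, a class set after the values were seen, 168 (71.5%) were called lower and 10 higher, with a median of -0.63. Of the 6 long members 5 were called lower. The 10308 tested genes under 100 kb had 1658 called lower and 1547 higher, with a median of 0.005. Syt1, Cadps and Cadps2 lay beyond the median of the genes of at least 400 kb, Erc2 also, and Rims1 and Ppfia2 on its other side, all with 0.5 RPKM added.

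**Figure D4:**
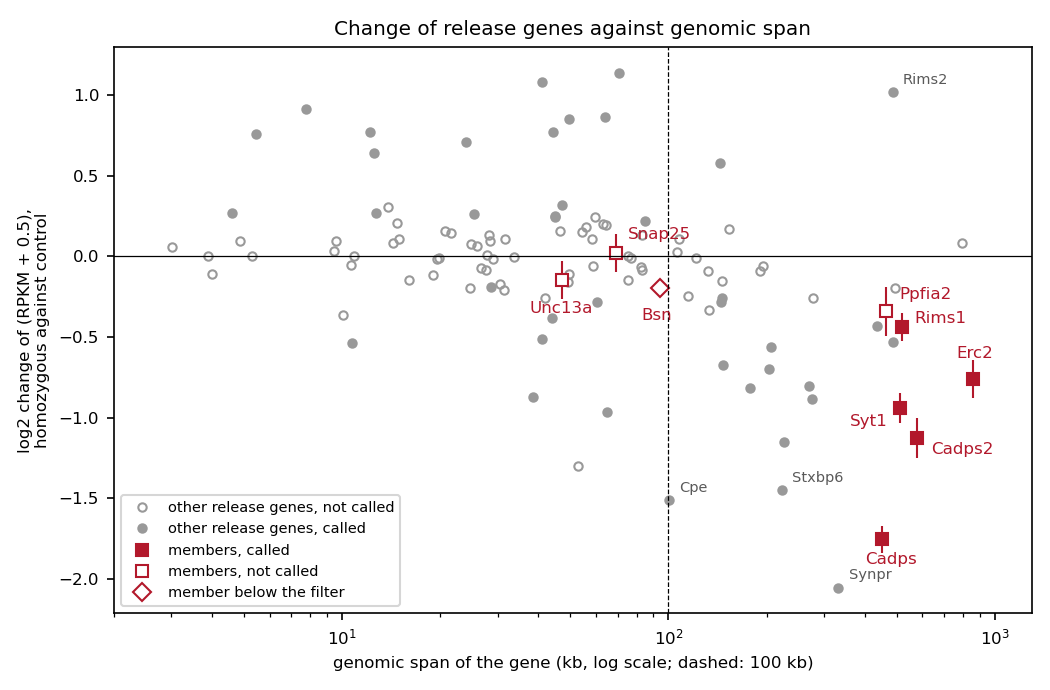
Log2 change of (RPKM + 0.5) in homozygous against control cortex of the members (squares with SE; diamond for Bsn, below the minimum level) and of 104 other tested release genes (circles), against genomic span in kb on a log scale; filled symbols are called at a limma adjusted p below 0.05 and the dashed line marks 100 kb. The called members lie between -0.44 and -1.76 on the right, with Rims2 at 1.02 at a like span.

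The rest of the release pathway, 133 other genes in 8 lists, had calls at shares near those of all genes. Of the 104 tested, 21 (20.2%) were called lower and 18 (17.3%) higher in homozygous against control cortex, beside 19.9% and 14.4% of all genes tested, the median change being -0.005 (log2), against -0.009 over all 12159 genes. Among those of at least 100 kb, 14 of 29 were lower and 2 higher (median -0.26), and among shorter ones 7 of 75 were lower and 16 higher (median 0.07). At 400 kb and above 5 were tested, of which the Rab guanine exchange factor gene Dennd1a and the endophilin gene Sh3gl2 fell, Rims2 rose, and the dynamin gene Dnm3 and Ptprn2 were not called at adjusted p-values of 0.212 and 0.537. No gene of these lists was called in heterozygous against control cortex.

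By role, the SNARE and Munc18 genes had 3 lower and 4 higher of 18 tested (16.7% and 22.2%). These and the counts of the other lists stand beside 19.9% lower and 14.4% higher over all genes tested. Napb, which encodes the SNARE adaptor beta-SNAP, fell by 0.87 on the log2 scale (limma adjusted p = 0.000719), and the SNARE gene Snap47 fell by 0.38. The syntaxin genes Stx3 and Stx2 rose by 0.77 and 0.71, and Stxbp3, a Munc18 gene of general secretion, by 0.32. Of 7 SNARE regulators 2 were lower and 2 higher (28.6% each). Stxbp6, which encodes amisyn, fell by 1.45 (limma adjusted p = 2.01e-07) and the tomosyn gene Stxbp5 fell by 0.26. Cplx2, which encodes complexin 2, rose by 0.64, and the taxilin gene Txlnb by 0.85. Txlnb stood at 1.17 RPKM in homozygous, 0.472 RPKM in heterozygous and 0.431 RPKM in control cortex. It was thus tested, and counted among the higher genes, only through its homozygous level. Stxbp6, which spans 222 kb, stood at 0.477 ± 0.035 RPKM in homozygous cortex and 2.17 RPKM in control cortex, and was tested through its level outside homozygous cortex.

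The synaptotagmins other than Syt1 and further C2 domain sensors had 3 lower and 4 higher of 12 tested (25% and 33.3%). The 3 that fell were the 3 tested ones of at least 100 kb. Among them Syt9, another fast calcium sensor, fell by 0.81 (limma adjusted p = 0.000121), and stood at 0.434 RPKM in homozygous and 1.06 RPKM in heterozygous cortex. All 4 that rose span under 100 kb, among them Syt6 by 1.14, Syt13 by 1.08 and Syt5 by 0.92 (limma adjusted p = 7.5e-05, 1.85e-05 and 0.000158). The other active zone and priming genes had 1 lower and 3 higher of 10 tested (10% and 30%): Unc13b fell, and Rims2, the liprin-beta gene Ppfibp1 (by 0.58) and the RIM-binding protein gene Tspoap1 (by 0.27, limma adjusted p = 0.0494) rose. In the list for the Rab3 and Rab27 cycle 3 of 9 were lower and 1 higher (33.3% and 11.1%). Rab3c fell by 1.15 and Rab3d fell by 0.54, and Rab3ip, which encodes a partner of Rab3, rose by 0.25. The remaining lower gene was Dennd1a, an exchange factor gene counted in this list though not itself a Rab3 or Rab27 gene, which fell by 0.53.

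Vesicle membrane proteins had 4 lower and 3 higher of 16 tested (25% and 18.8%). Synpr, which encodes synaptoporin, fell by 2.06 (limma adjusted p = 1.57e-07), further than any member, and stood at 1.18 ± 0.256 RPKM in homozygous cortex against 6.41 RPKM in control cortex. Svop fell by 0.96, and Syn2, which encodes synapsin II, fell by 0.68. The glutamate transporter gene Slc17a7 rose by 0.77, and Slc17a6, another vesicular glutamate transporter gene, differed by -0.16 with an adjusted p of 0.141. Of 24 tested genes of vesicle endocytosis 2 were lower and 0 higher (8.33% and 0%). The amphiphysin gene Amph fell by 0.70 and Sh3gl2 fell by 0.43, while the clathrin genes Clta and Cltc differed by 0.10 and 0.20 with adjusted p-values of 0.317 and 0.0677. Dense core vesicle genes, the cargo pathway that CAPS proteins serve, had 3 lower and 1 higher of 8 tested (37.5% and 12.5%). Of the genes for hormone-processing enzymes, Cpe fell by 1.51 (limma adjusted p = 4.54e-08) and Pcsk2 fell by 0.80 (1.35e-05). The granin Scg3 fell by 0.51 (0.0312), and the granin Scg2 rose by 0.76 (0.0135).

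**Figure D5:**
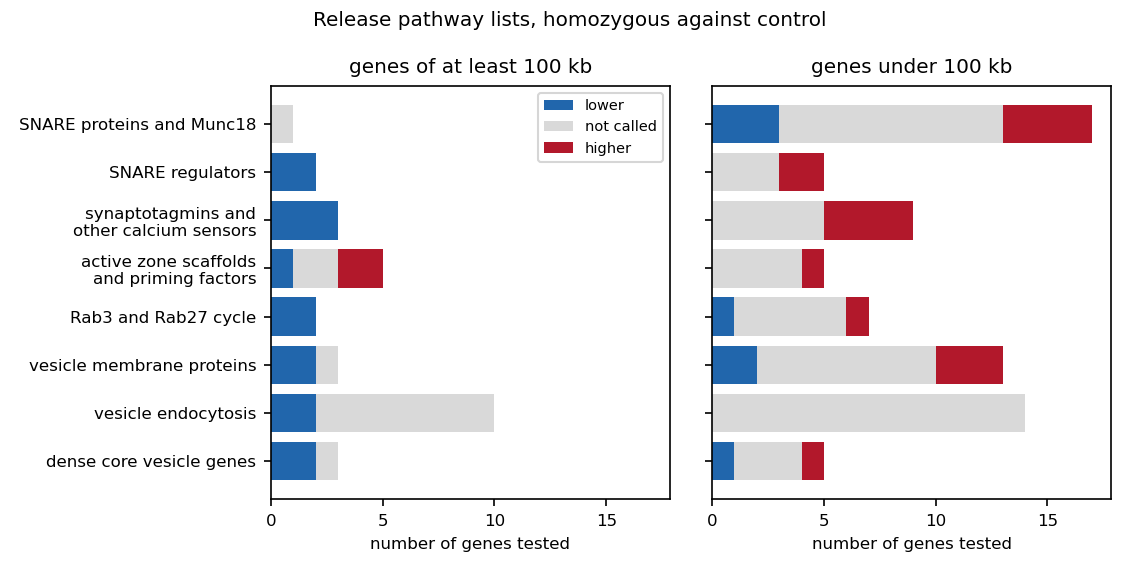
Number of tested genes of 8 release pathway lists, without the members, called lower, not called or called higher in homozygous against control cortex at a limma adjusted p below 0.05, for genes of at least 100 kb (left) and under 100 kb (right). On the left all 3 synaptotagmin and sensor genes are lower, and on the right 4 of 9 are higher and none is lower.

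Whether the members moved with the makeup of the tissue was read from marker lists. Of 15 tested neuron markers 3 were called lower and 3 higher in homozygous against control cortex (20% each). These and the counts of all other marker lists stand beside 19.9% lower and 14.4% higher over all genes tested. Summed, the 16 listed neuron markers stood at 805 to 997 RPKM in homozygous, 878 to 966 RPKM in heterozygous and 857 to 970 RPKM in control libraries, so the groups overlapped, and homozygous replicate 3 had the highest sum. The neuronal tubulin gene Tubb3 differed by -0.20 with a limma adjusted p of 0.105, the intermediate filament gene Ina rose by 0.52, and Rbfox3, which spans 422 kb, fell by 1.53. Rbfox3 stood at 0.149 RPKM in homozygous and 1.38 RPKM in control cortex. Of 10 excitatory neuron markers 7 fell and 1, Tbr1, rose. Their sum was 118 to 143 RPKM in homozygous, 236 to 252 RPKM in heterozygous and 184 to 246 RPKM in control libraries, with homozygous libraries lowest, as for the members. In this list Nfib, which spans 416 kb, fell by 1.54, and Sox5, which spans 954 kb, fell by 1.23.

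Of 8 intermediate progenitor markers 4 fell and 1 rose, with sums of 120 to 124 RPKM in homozygous, 163 to 175 RPKM in heterozygous and 159 to 189 RPKM in control libraries. Of 12 radial glia markers 5 fell and 1 rose, with sums of 1860 to 1950 RPKM in homozygous, 1940 to 2200 RPKM in heterozygous and 2000 to 2190 RPKM in control libraries. Of 5 tested GABAergic neuron markers 0 fell and 1 rose, of 5 Cajal-Retzius markers 0 fell and 3 rose, and of 8 microglia markers 0 fell and 4 rose. The Cajal-Retzius markers summed to 41.1 to 49.3 RPKM in homozygous, 29.7 to 35.8 RPKM in heterozygous and 31.4 to 35.7 RPKM in control libraries. The microglia markers summed to 18.1 to 25.1 RPKM in homozygous, 14.6 to 18.1 RPKM in heterozygous and 13.7 to 15.6 RPKM in control libraries. No tested marker of endothelial cells (8), meninges (6) or choroid plexus (3) was called, 1 of 4 pericyte markers rose and 2 of 3 erythroid markers fell. None of the listed markers in the tables was at 0 in every library. The part of cell makeup in the members' values was not tested. The sexes were mixed differently in the 3 groups. For the 5 called members and Bsn every homozygous library was below every control library, and so within each sex as well. Such a lack of overlap held for 25.6% of genes tested. Unc13a and Ppfia2 were also lower within each sex, though they overlapped across all libraries. For both, the 1 male control library, replicate 3, was the highest control. Snap25 was not lower in either sex. The share of all genes lower within each sex was not computed. With 1 female homozygous and 1 male control library, these values give no measure of spread within a sex.

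The genes whose levels ran most like each member over the 9 libraries were read by Pearson's r of log2(RPKM + 0.5). For members that fell, r mostly reflects the gap between the 3 homozygous and the 6 other libraries. Nearest to Cadps were Hs6st2 (r = 0.998) and Ppp1r9a (0.997), to Cadps2 Srbd1 (0.996) and Tenm3 (0.995), to Syt1 Rcan1 (0.995) and Kcnd2 (0.994), to Erc2 Efr3b (0.994) and Ube2ql1 (0.991), and to Rims1 Mapk10 and Efr3b (both 0.978). Bsn ran with Prph (0.991) and Coro2b (0.989), Ppfia2 with 2700081O15Rik (0.971) and Adcy5 (0.969), Snap25 with Nsg2 (0.948), and Unc13a with Dnajc4 (0.961) and Maneal (0.96). Among these neighbours Hs6st2, which encodes a heparan sulfate sulfotransferase and spans 295 kb, fell by 2.37 on the log2 scale, and Nsg2 differed by 0.01 with a limma adjusted p of 0.959.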

How the data were processed

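Per the labels' protocols, total RNA of E13.5 cortex was extracted with a column kit, depleted of ribosomal RNA and made into libraries by a modified stranded protocol. TopHat 1.4.1, CASAVA 1.8.2 and build mm9 are named by the submitters' processing notes; how reads were counted, against which annotation, by strand or not and with what rule for several matches, are details not given in the sources used here. The authors deposited 1 RPKM value per RefSeq transcript and library (30978 transcripts) and no counts, so depth is an estimate and the limits of counting error are not given.

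Of the transcripts, 30507 were named by a RefSeq table and 178 by GENCODE M21, and 293 without a name were left out. Genomic spans are those of GENCODE M21 on GRCm38. One transcript per gene, the one with the highest mean RPKM, was fitted with limma 3.58.1 in R 4.3.3 (all 9 libraries, by genotype, mean-variance trend) on log2(RPKM + 0.5) for genes averaging 0.5 RPKM or more, with Benjamini-Hochberg adjustment over all 12159 genes. The median SE of a log2 change was 0.0825. Pair ratios were compared by two-sided exact permutation tests. The fit was tested on simulated data.

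The members and all lists were chosen with earlier results of these data known. Named genes are the members, Sfpq, pair partners, up to 4 called genes of smallest adjusted p and the 2 of highest mean in each release list, up to 2 and the first gene of each marker list, and the 2 genes most like each member with a mean of at least 1 RPKM; Emx1, Neurod6, Dnm3 and Ptprn2 were named outside that rule after their values were seen, and some genes the rule takes are not reported here. No 2 libraries held the same table. Reads shared by overlapping or antisense genes could not be told apart here.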

Additional observations from a re-analysis of the deposited data

How the results depend on the processing

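The 5 called members kept their direction and call in homozygous against control cortex under every alternative that tested them, 20 each for Cadps, Cadps2, Syt1 and Erc2 and 19 for Rims1, which was not tested at a minimum of 2 RPKM. The difference between long and short members there moved to -0.45 with a limit of 50 kb, -0.84 and -0.60 with a pseudocount of 0.1 and 1, and -0.79 with transcripts summed, and ran from -0.78 to -0.63 when 1 library was left out. Genes called in heterozygous against control cortex came to 1, higher, with no filter, to 1, lower, in the fit of those 2 groups alone, and to 0 to 1 when 1 library was left out. Genes called higher came to 2953 in homozygous against control and 2957 in homozygous against heterozygous cortex with libraries centred on their median, and genes called in all to 3111 to 4123 and 3016 to 4187 when 1 library was left out, with 5 to 6 and 5 to 8 members. Differences near 0 turned sign when 1 library was left out: for Snap25 in homozygous against control cortex they ran from -0.108 to 0.108, and in heterozygous against control cortex from -0.0255 to 0.0437 for Cadps, from -0.0569 to 0.0701 for Erc2, from -0.0627 to 0.0278 for Rims1 and from -0.140 to 0.0656 for the ratio of Erc2 to Erc1. The cause was not tested. Whether replicate numbers pair the libraries was not settled. Deviations from the group mean of same-numbered control and homozygous libraries correlated at 0.404, 0.0685 and 0.322 for replicates 1, 2 and 3. Those of replicates 1 and 3 were the highest of all pairs between groups. Control replicate 2 was slightly closer to homozygous replicate 1 (0.0963). Same-numbered pairs with a heterozygous library ran from -0.04 to 0.0995. With the replicate block the genes called came to 4429 in homozygous against control, 0 in heterozygous against control and 4267 in homozygous against heterozygous cortex, with 5, 0 and 6 members. Bsn and Rims1 had the lowest levels of the members and the fewest estimated reads, 109 to 469 and 371 to 846 per library. Whether depth limits their values was not tested.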

Other observations

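The neuroendocrine gene Scg5, a chaperone of prohormone convertase in the dense core vesicle list, varied more between homozygous libraries than the members did. It stood at 41.6, 6.27 and 50.4 RPKM in homozygous, 109, 69.3 and 66.0 RPKM in heterozygous and 73.3, 70.5 and 41.2 RPKM in control cortex. The homozygous difference from control was -1.30 ± 0.60 (SE) on the log2 scale with a limma adjusted p of 0.118, although the size exceeded that of Cadps2 and Syt1.

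Genes of other cortical programmes moved in homozygous cortex as well. The proneural factor gene Neurog2 fell by 1.34 on the log2 scale (limma adjusted p = 3.62e-06) and the progenitor gene Insm1 fell by 0.76 (3.06e-05). Lhx5 and Ebf2, markers of Cajal-Retzius cells, rose by 1.16 and 0.89 (1.85e-05 and 1.34e-05), and the GABA synthesis gene Gad1 by 1.15 (0.000668), while Reln differed by -0.16 (0.148). Neurog2 and Insm1 span under 10 kb.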
